A study of Mus musculus with 2 samples.

Results

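Mural cells, the pericytes of small vessels and the smooth muscle cells of larger ones, were sought in single-cell transcriptomes of mouse long-bone marrow stroma by 8 genes. A barcode was a member when its raw UMIs (unique molecular identifiers, each standing for 1 captured RNA molecule) of Myh11, Rgs5, Notch3, Mcam and Higd1b summed to at least 5 and those of the endothelial genes Cdh5, Kdr and Tie1 to under 3. Members with at least 10 UMIs of Myh11, Acta2 and Tagln together were called contractile, and the others are the remaining members, which the rule treats as pericytes. The rule was met by 5730 of 41378 barcodes, 346 of them contractile and 5384 remaining. All samples are from wild-type C57BL6 mice with no treatment named, and 1 library was made from adult and 1 from old animals, with the age given as a word only. Marrow cells were freed with enzymes, depleted of blood-forming cells and sorted for intact live cells, so shares are shares of sorted barcodes. Whether marrow of several mice was pooled is not given in the sources used here. With 1 library per age there is no replicate error and no test. Intervals are 95% exact binomial, Poisson or ratio intervals that cover counting error only, neither the variation between cells nor that between mice.

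Mural cells wrap the endothelial tube and share its basement membrane. Smooth muscle cells contract through smooth muscle actin and myosin, and pericytes are marked in many tissues by the signalling regulator Rgs5, the receptors Pdgfrb and Notch3, and the subunits Kcnj8 and Abcc9 of an ATP-sensitive potassium channel. In marrow, mural cells lie beside CAR cells, CXCL12-abundant reticular cells, which are also perivascular and make the blood stem cell factors Cxcl12 and Kitl.

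The data went against the label for most members. Of the adult members, 2009 (70.7%) reached 5 marker UMIs only with their Notch3 UMIs, and of the old members 2602 (90%) did. The CAR cell genes Cxcl12, Lepr, Adipoq and Kitl made up at least 0.5% of UMIs in 2225 of 2604 adult and 2596 of 2780 old remaining members, and in 97 of 236 adult and 23 of 110 old contractile members. No Rgs5 UMI was found in 1375 adult and 2206 old remaining members. The class of remaining members is therefore named by its rule here and not as pericytes. At the threshold, 818 adult and 747 old barcodes had exactly 5 marker UMIs, with Rgs5 at 62.2 and 15.2 CPM (UMIs of the gene per 1e6 UMIs of the group) and Cxcl12 at 7118 and 7083 CPM. The 1294 adult and 1130 old barcodes with 4 marker UMIs had Rgs5 at 45.0 and 11.9 CPM and Cxcl12 at 7509 and 7054 CPM. The endothelial condition had removed 203 adult and 30 old barcodes.

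Because the rule mixes these cells, a narrower set was described beside it, chosen after the values had been seen. Rgs5-high members had at least 10 Rgs5 UMIs, under 0.5% CAR gene UMIs, at most 2% UMIs of abundant blood cell RNA, and at most 3 times the median UMI total of their library. The last condition was added after a first version without it had been compared between the ages. It removed 15 of 340 adult and 4 of 141 old barcodes, with 22050 to 64472 UMIs. The counts of genes called between the ages over all these members and the ratio of their shares are also given without it. Without it, 47 values of single genes moved beyond their counting interval and 139 did not. Of the list medians, 3 moved by over 0.5 and 91 did not. The values that moved are given only with the condition. The set held 325 adult and 137 old members, 112 and 58 of them contractile and 213 and 79 remaining. A further 9 adult and 21 old contractile members, called Rgs5-low, met the same conditions with under 3 Rgs5 UMIs. The 5 marker genes, the CAR genes and the contractile sum chose these sets, so their levels are descriptions.

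**Figure D1:**
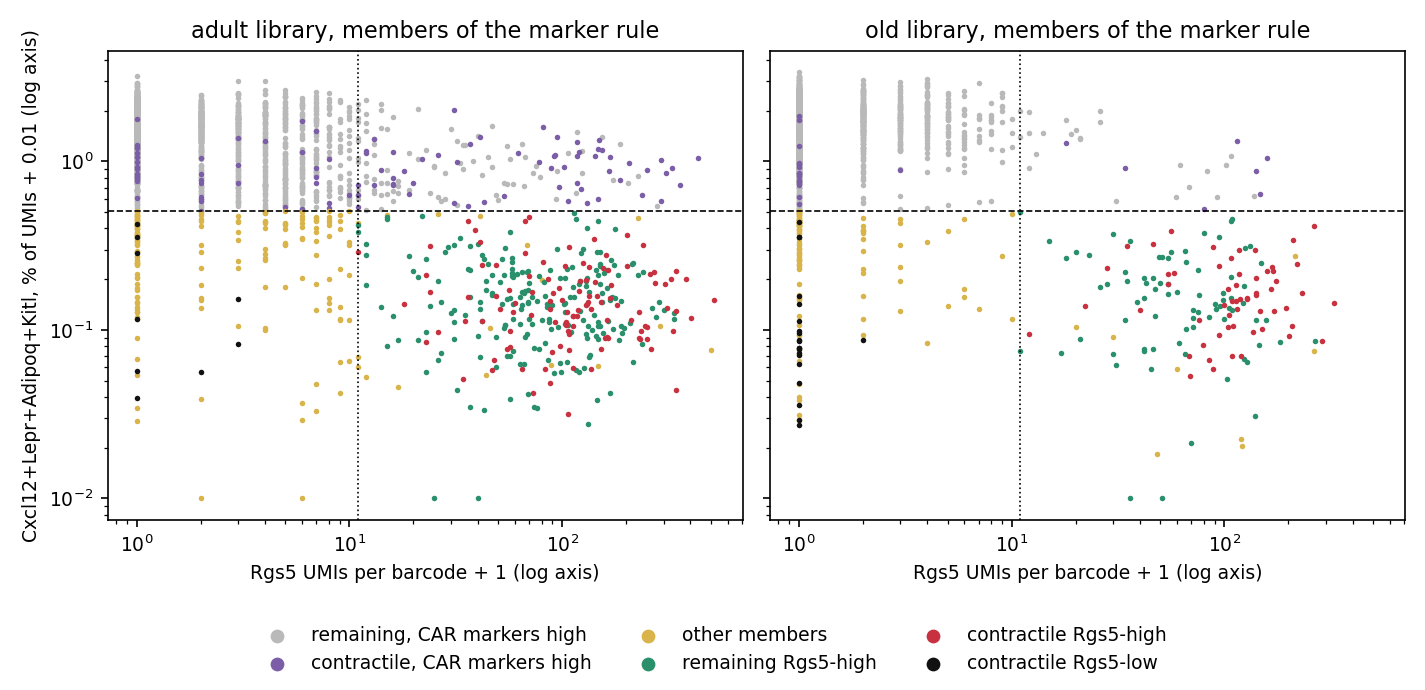
Each point is 1 member of the marker rule in the adult (left) or old (right) library, with its Rgs5 UMIs plus 1 on the x axis and the percentage of its UMIs from Cxcl12, Lepr, Adipoq and Kitl plus 0.01 on the y axis, both on log axes. The dashed line is the 0.5% limit and the dotted line 10 Rgs5 UMIs; most members lie above the first and to the left of the second, and the 325 adult and 137 old Rgs5-high members form a cloud at the lower right.

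Promoters of 4 genes that separate contractile from remaining Rgs5-high members below are shown because they hold, or do not hold, the CArG box, a sequence that serum response factor, an activator of smooth muscle genes, is known to bind. The 4 were picked after the search. The 250 bases before the RefSeq gene start (GRCm38.p6, while the counts were made on GRCm39) of Acta2, smooth muscle actin, and Myl9, a myosin light chain, are shown with CArG boxes in capitals. Kcnj8 and Abcc9, which were lower in contractile than in remaining Rgs5-high members, are shown for contrast. A CArG box was searched on both strands as CC and GG around 6 bases of which at least 5 were A or T.
Acta2, chr19:34255374-34255623, minus strand: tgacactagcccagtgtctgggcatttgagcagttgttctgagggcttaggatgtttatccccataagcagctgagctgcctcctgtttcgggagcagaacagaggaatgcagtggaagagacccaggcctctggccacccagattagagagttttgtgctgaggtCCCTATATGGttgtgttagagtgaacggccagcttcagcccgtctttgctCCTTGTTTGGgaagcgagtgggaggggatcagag
Myl9, chr2:156775214-156775463, plus strand: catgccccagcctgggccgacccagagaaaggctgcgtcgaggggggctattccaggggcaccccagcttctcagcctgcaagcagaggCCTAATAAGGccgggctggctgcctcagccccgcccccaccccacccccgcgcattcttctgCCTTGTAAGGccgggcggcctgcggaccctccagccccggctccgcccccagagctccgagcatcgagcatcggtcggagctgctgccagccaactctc
Kcnj8, chr6:142571615-142571864, minus strand: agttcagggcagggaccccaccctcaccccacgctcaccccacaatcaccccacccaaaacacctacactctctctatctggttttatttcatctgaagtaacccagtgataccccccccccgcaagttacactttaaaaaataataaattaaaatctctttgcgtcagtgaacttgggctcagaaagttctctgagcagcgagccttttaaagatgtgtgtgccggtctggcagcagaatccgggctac
Abcc9, chr6:142702275-142702524, minus strand: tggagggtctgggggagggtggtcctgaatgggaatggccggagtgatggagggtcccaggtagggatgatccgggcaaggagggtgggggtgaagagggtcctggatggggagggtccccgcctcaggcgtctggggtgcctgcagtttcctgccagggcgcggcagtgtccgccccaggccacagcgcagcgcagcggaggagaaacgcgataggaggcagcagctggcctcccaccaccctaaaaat
Acta2 and Myl9 each held 2 such words, and the Kcnj8 and Abcc9 windows held 0, which says only that these letters are not in these windows. Of the contractile apparatus list, 34 of 39 genes had a promoter in the table and 9 held a CArG box (26.5%): Acta2, Crip1, Fhl1, Filip1l, Myl6, Myl9, Pdlim3, Synm and Vcl. Over all 27025 genes of the table the share was 9.78%, and over its 32851 promoters 8.59%. Of 18 matched pericyte identity genes, only Tbx18 held one. The word GTGGGAA, bound by the Notch effector RBPJ, was found on either strand in 4 of those 18 genes (22.2%), Colec11, Ebf1, Gucy1a1 and Tbx18, and in 6.18% of all genes. Matches are descriptions of sequence and not evidence of binding, and Tagln, Myh11, Higd1b and Heyl are not shown.

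Members of the whole rule took a larger share of the old library and the Rgs5-high members a smaller one. The rule was met by 2840 of 22403 adult barcodes (12.7%) and 2890 of 18975 old ones (15.2%), an old over adult ratio of 1.20 (1.14 to 1.27). Rgs5-high members made up 1.45% of adult and 0.722% of old barcodes, a ratio of 0.498 (0.405 to 0.610). The direction for the whole rule turned when the rule was run without Notch3 (0.409), on members with few CAR gene UMIs (0.618) or on barcodes thinned to 3000 UMIs (0.814). The members had a median of 10677 UMIs for the adult and 10567 for the old library, above the 7139 and 7736 of all barcodes, so the raw threshold also selects deep barcodes. Contractile members were 236 adult (8.31% of members, 7.32% to 9.39%) and 110 old barcodes (3.81%, 3.14% to 4.57%). Within the Rgs5-high set the contractile share was 34.5% for the adult and 42.3% for the old library. Endothelial barcodes, with at least 5 UMIs of Cdh5, Kdr and Tie1, numbered 1337 adult and 282 old, so Rgs5-high members stood at 24.3 per 100 of them for the adult and 48.6 for the old library. How far digestion and sorting freed each cell type in each library was not measured.

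**Figure D2:**
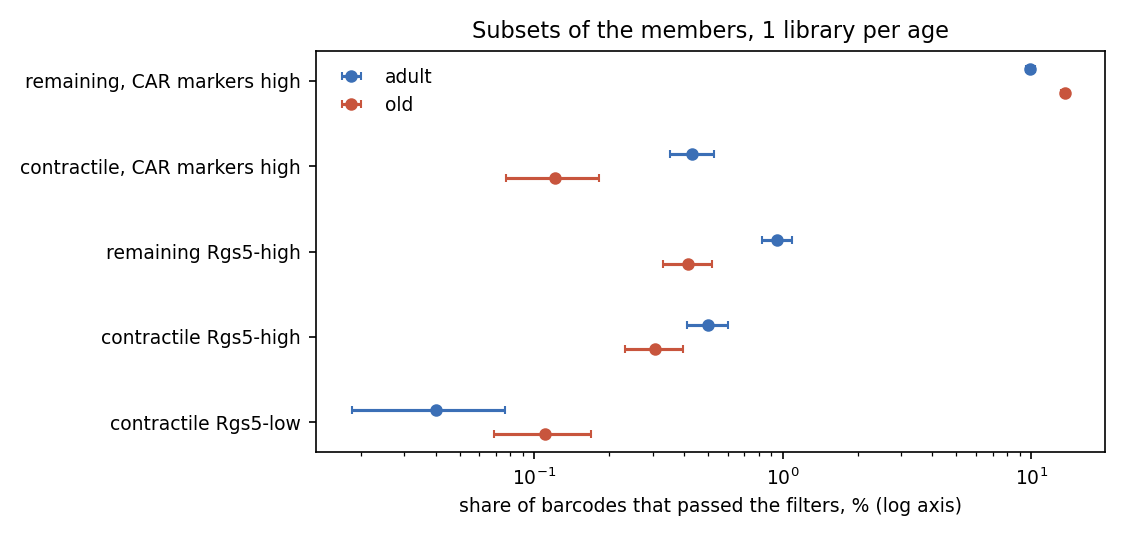
Share of barcodes that passed the filters, in percent on a log axis, for 5 subsets of the members in the adult (blue) and old (red) library, with exact 95% binomial intervals for counting error. The remaining members with high CAR genes are the largest subset, at 9.93% and 13.7%, and contractile Rgs5-low members go from 0.0402% in the adult to 0.111% in the old library.

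Rgs5-high members carried some mural genes, Higd1b among them, that were near 0 in CAR barcodes that are no members. Other mural genes were not near 0 there. Notch3 had UMIs in 63.4% of adult and 64.6% of old CAR barcodes, and Pdgfrb had UMIs in most CAR barcodes of both libraries. Rgs5, which chose the Rgs5-high members, was at 16176 CPM for the adult and 15082 CPM for the old library, against 25 and 5.89 CPM in CAR barcodes. Against those barcodes, 538 of 4525 counted genes were at least 2-fold higher (11.9%) and 657 lower (14.5%) in the adult library, and 580 of 4369 higher (13.3%) and 670 lower (15.3%) in the old one. Only genes that reached 50 CPM and 50 UMIs in the higher of the 2 groups were counted, so a list's counted genes are not the whole list. Among the highest in both libraries were the olfactory-type receptor Or51e1, at 530 and 508 CPM, and the MHC class Ib gene H2-M9, at 817 and 549 CPM. Stac, an adaptor of voltage-gated calcium channels, was at 475 and 824 CPM, and Casq2, a calcium store protein of muscle, at 195 and 156 CPM. The proteoglycan Aspn was at 1253 and 884 CPM. These genes describe the set, since Rgs5 selected it from the same cells.

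Traces of other cell types in this set differed between the libraries. The 8 endothelial markers summed to 182 CPM among adult and 297 CPM among old contractile Rgs5-high members, with 0 and 4 of them at 0, and to 264 and 345 CPM in remaining ones. The 7 skeletal muscle markers summed to at most 2.46 CPM. The 6 adipocyte markers include the CAR gene Adipoq. In contractile Rgs5-high members they went from 5167 CPM for the adult to 2675 CPM for the old library. In remaining ones they went from 2640 to 2131 CPM, and in CAR barcodes they summed to 1878 and 1341 CPM. Only 3 of the 6 reached 10 CPM in contractile and 2 in remaining Rgs5-high members of each library. Cidec and Cidea were at 0 in both classes of both libraries. The 8 osteolineage markers moved between the libraries, from 3373 to 419 CPM in contractile and from 5552 to 4457 CPM in remaining Rgs5-high members. The 7 plasma cell markers went from 169 to 2405 CPM and from 164 to 2932 CPM. In contractile members the 8 erythroid markers went from 142 to 847 CPM and the 7 megakaryocyte markers from 27.0 to 351 CPM. In remaining ones they went from 326 to 266 CPM and from 151 to 32.0 CPM. Of the erythroid gene Hbb-bs, 1 old contractile barcode held 162 UMIs against a median of 1. In adult remaining members 1 barcode held 72 against a median of 0. In remaining old members the osteolineage sum was mostly Spp1, at 3282 CPM, of which 95.8% came from 1 barcode. The osteoblast gene Col1a1 was also found in megakaryocyte barcodes of the same libraries, at 26928 and 596 CPM. The part of these RNAs in the results below was not tested.

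Contractile and remaining Rgs5-high members shared the mural genes and differed in muscle genes. Pdgfrb, the receptor for the endothelial growth factor PDGF-B, was at 835 and 1194 CPM in adult and old contractile members and at 1080 and 1532 CPM in remaining ones. Notch3, which pericytes and smooth muscle need for their upkeep, was at 1374 and 2308 CPM in contractile and at 1301 and 2378 CPM in remaining members. Most CAR barcodes of both libraries also held UMIs of Pdgfrb and of Notch3, so neither gene was found only in Rgs5-high members. Thinned to 1000 UMIs each, 16.5% of adult and 17.7% of old CAR barcodes held Notch3. It was held by 72.4% and 88.5% of contractile and 70.0% and 87.6% of remaining Rgs5-high members. For Pdgfrb the shares were 42.0% and 47.9%, 54.5% and 69.8%, and 65.3% and 78.4% in that order. Notch3 helped choose the members, and CAR barcodes are no members, so its gap is a description. Within each library the counting intervals of the classes overlapped for Notch3, and both classes held more of it in the old library, where its ratio over adult was 1.76 (1.66 to 1.87). The adhesion molecule Mcam was at 229 and 191 CPM in contractile and 142 and 128 CPM in remaining members. Higd1b was at 281 and 432 CPM in contractile and 435 and 434 CPM in remaining members.

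In the adult library 158 of 3975 counted genes were at least 2-fold higher (3.97%) and 138 lower (3.47%) in contractile than in remaining Rgs5-high members, and in the old library 57 of 1950 (2.92%) and 25 (1.28%). The classes were cut by Myh11, Acta2 and Tagln, so the whole contrast is a description. The cut is on raw UMIs, and the classes differed in depth. Median UMI totals were 6526 in contractile and 5635 in remaining adult members, and 6946.5 and 4790 in old ones. The part of depth in the contrasts was not tested. Of the contractile apparatus list, 33 genes were counted in the adult library, 22 were at least 2-fold higher and 0 lower, with a median log2 ratio of 1.22 beside -0.05 over all genes. In the old library 30 were counted, 11 were higher and 0 lower, with a median of 0.66 beside 0.01. The same 28 genes were higher and the same 9 lower in both libraries, which is 17.7% of the adult and 49.1% of the old higher genes. Of the adult called genes, 47 higher and 55 lower ones were counted in the old library but not called. Others fell short of the minimum there, so these shares also depend on which genes could be counted.

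Smooth muscle actin Acta2 was at 3893 CPM (3761 to 4028) in adult contractile and 67.4 CPM (54.1 to 82.9) in adult remaining members, and at 1522 CPM (1410 to 1642) and 44.3 CPM (26.3 to 70.1) in old ones. The actin-binding Tagln was at 2448 and 71.2 CPM for the adult and 1079 and 37.0 CPM in the old library. Myosin heavy chain Myh11 was at 2045 and 327 CPM for the adult and at 2054 and 648 CPM in the old library, so old remaining members held more Myh11 than adult ones while the contractile classes were level. Among genes that the cut did not use, Myl9 was 9.37-fold higher (8.03 to 11) in adult and 3.92-fold higher (3.01 to 5.16) in old contractile members. Lmod1, which nucleates actin filaments, was 8.80-fold and 4.0-fold higher. The tropomyosins Tpm1 and Tpm2, which lie along the filament, were at 2018 and 1270 CPM in adult contractile members against 557 and 345 CPM in remaining ones. Ctnna3, an alpha-catenin of cell junctions, was at 507 against 50.7 CPM for the adult and 282 against 73.9 CPM in the old library. Ntn4, a netrin of the basement membrane, was at 173 against 28.8 CPM and 232 against 81.3 CPM. Myocd, the coactivator of serum response factor, was at 134 CPM in adult contractile members against 2.27 CPM, and at 45.0 against 24.6 CPM in the old library, where its 20 and 10 UMIs fell short of the minimum. Desmin (Des), an intermediate filament of muscle, was not higher in contractile members: it was at 108 against 145 CPM for the adult and 90.1 against 158 CPM in the old library.

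Of the pericyte identity list, 24 genes were counted in the adult library and 5 were at least 2-fold lower in contractile members, among them Steap4, Kcnj8, Abcc9 and Vtn. In the old library 21 were counted and 0 were called in either direction. The channel subunit Kcnj8 was at 143 CPM (119 to 171) in adult contractile and 557 CPM (518 to 599) in adult remaining members, a 3.88-fold difference (3.20 to 4.74), and at 203 and 387 CPM in the old library, a 1.91-fold difference (1.46 to 2.5). Its partner Abcc9 was 2.94-fold lower (2.66 to 3.26) in adult and 1.61-fold lower (1.45 to 1.79) in old contractile members. The metalloreductase Steap4 was 2.12-fold lower (1.92 to 2.34) and 1.18-fold lower (1.04 to 1.34). In Kcnj8, Abcc9 and Steap4 the gap was smaller in the old library, and the difference between the libraries was not tested.

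**Figure D3:**
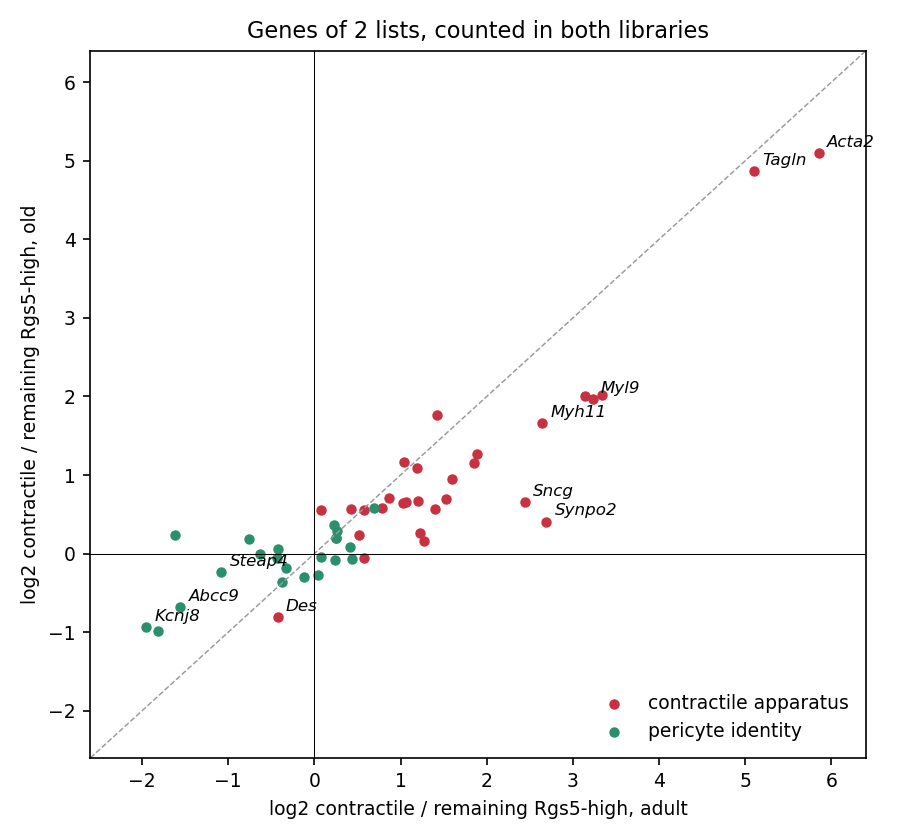
Log2 ratio of contractile over remaining Rgs5-high members in the adult (x axis) and old (y axis) library for the genes of the contractile apparatus (red) and pericyte identity (green) lists that were counted in both; the dashed line marks equal ratios. Acta2 and Tagln lie far from the rest at the upper right, Kcnj8 at -1.96 and -0.93 lies at the lower left, and Synpo2 lies at 2.69 and 0.41.

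The whole rule classes gave a larger contrast of another kind. There 293 of 4309 genes were higher (6.80%) and 204 lower (4.73%) in adult contractile than in remaining members, and 494 of 4625 (10.7%) and 492 (10.6%) in old ones. Higher genes included Mustn1 (324 against 5.02 CPM in the adult), Lmod1 (131 against 5.11 CPM) and Sparcl1 (586 against 27.9 CPM). Lower genes included the leptin receptor Lepr (713 against 1919 CPM for the adult and 586 against 2727 CPM in the old library), the adhesion molecule Vcam1 (591 against 1555 and 260 against 1096 CPM) and Bmp6 (348 against 957 and 187 against 1152 CPM). The CAR gene content of the remaining members is given above.

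A small set of contractile members held few or no UMIs of Rgs5, Kcnj8 and Abcc9 and more Acta2, Tagln and Myl9 than the contractile Rgs5-high members. The 9 adult and 21 old Rgs5-low members made up 3.81% and 19.1% of contractile members. Acta2 was at 9422 CPM (8733 to 10150) for the adult and 13189 CPM (12574 to 13826) in the old library, 2.42-fold and 8.66-fold above the contractile Rgs5-high members. Tagln was at 8509 and 11029 CPM and Myl9 at 3240 and 3496 CPM. Calponin (Cnn1), a marker of mature smooth muscle, had 9 UMIs for the adult and 35 for the old set, at 123 and 267 CPM, against 4 and 0 UMIs in the contractile Rgs5-high members. Kcnj8 had 0 UMIs in both. Set to the floor of 3 counts, which is 40.8 CPM for the adult and 22.9 CPM for the old set, it was 3.51-fold and 8.85-fold lower than in contractile Rgs5-high members. These folds follow from the floor and are not limits of an interval. Abcc9 had 3 and 1 UMIs, at 40.8 and 7.63 CPM. Pdgfrb, which the rule did not use, was at 436 and 473 CPM. The osteoblast gene Spp1 led the genes above contractile Rgs5-high members, at 2478 against 83.5 CPM for the adult and 5770 against 110 CPM for the old set, and 58.8% and 95.2% of its Rgs5-low UMIs came from 1 barcode each. The osteolineage sum was 8686 and 7900 CPM in Rgs5-low against 3373 and 419 CPM in contractile Rgs5-high members, and its part in these values was not tested. Against contractile Rgs5-high members, 27 of 2077 genes were higher (1.30%) and 663 lower (31.9%) in the adult library, and 146 of 1526 (9.57%) and 588 (38.5%) in the old one, with median log2 ratios of -0.64 and -0.70 over all counted genes and 73449 and 131017 UMIs behind the Rgs5-low sets.

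**Figure D4:**
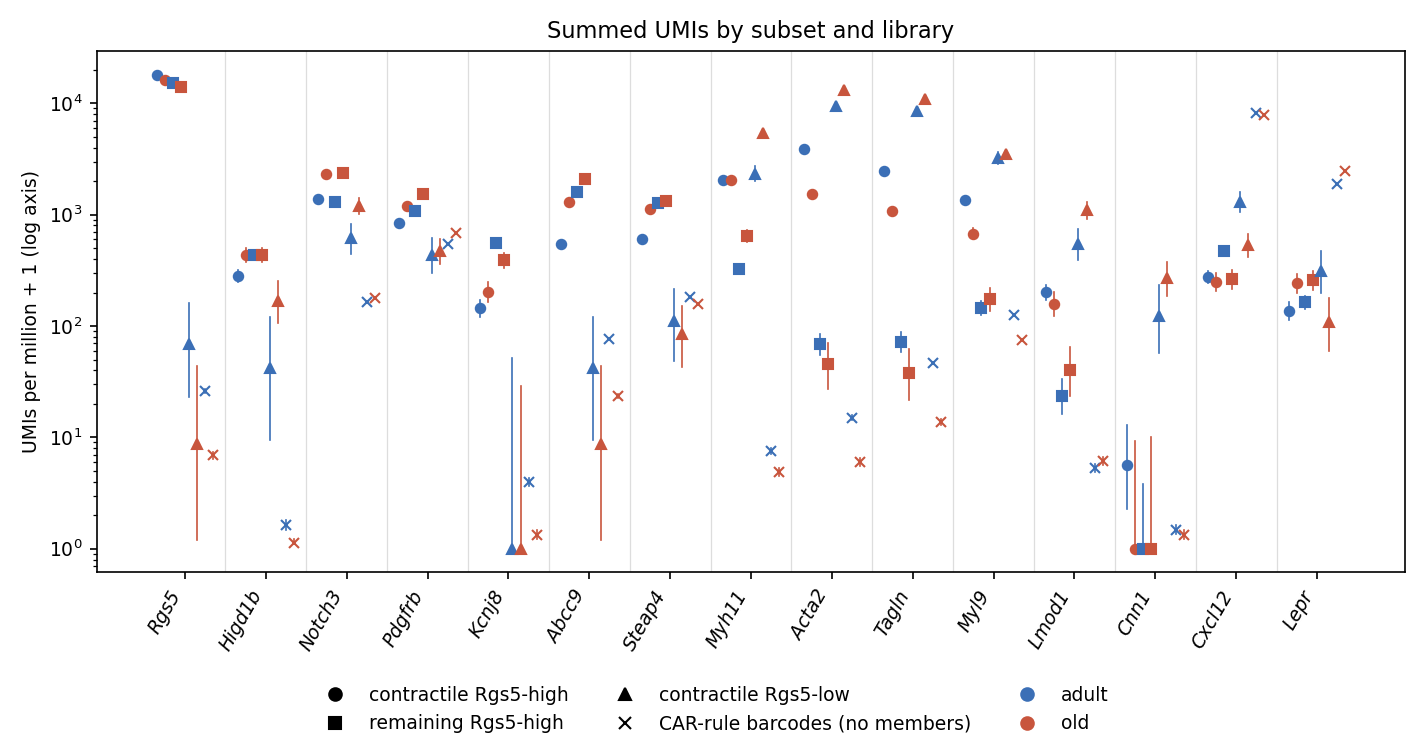
CPM plus 1, on a log axis, of 15 genes in contractile Rgs5-high (circles), remaining Rgs5-high (squares) and contractile Rgs5-low members (triangles) and in CAR barcodes that are no members (crosses), in the adult (blue) and old (red) library; bars are 95% Poisson intervals for counting error. Acta2, Tagln and Cnn1 are highest in the Rgs5-low members, in which Rgs5, Kcnj8 and Abcc9 are low, and Cxcl12 and Lepr are highest in the CAR barcodes.

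Between the ages, 18 of 23 counted immediate early genes and 7 of 27 fibrillar matrix genes were at least 2-fold lower in old Rgs5-high members, and 6 of 18 vasoactive receptor and cGMP genes and 4 of 23 ion channel genes at least 2-fold higher. Of 4151 counted genes, 267 were at least 2-fold higher (6.43%) and 190 lower (4.58%) in the old library, with a median log2 ratio of 0.04. Without the depth condition 351 were higher and 259 lower. The ratios moved with gene length: with genes split by length into 4 equal bins, the median was -0.51 in the bin of the shortest and 0.49 in that of the longest genes, and centring within bins left 163 genes higher. Over the comparisons of the ages, the same centring moved 8 list medians by over 0.5 and left 71 within it, and moved 36 values of single genes beyond their counting interval and left 66 within it. No single gene and no list median beyond 0.5 changed direction. The single genes had been chosen for large ratios, at least 2-fold, so a change of direction was unlikely from the start. For reference, 132 of 4227 genes were higher (3.12%) and 157 lower (3.71%) over all members of the rule, with Grm7, Hdac9 and Efemp1 among the highest and Cthrc1, Bglap and Col1a1 among the lowest. In all contractile members it was 248 of 4570 (5.43%) and 220 (4.81%), and in all remaining members 130 of 4193 (3.10%) and 147 (3.51%).

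Immediate early genes, which cells transcribe within minutes of a stimulus, were lower in old Rgs5-high members. Of 28 listed genes 23 were counted, 18 were at least 2-fold lower and 0 had a ratio above 0, with a median of -1.22, or -0.80 when centred by length. The transcription factor Fos was at 4622 CPM among adult and 1241 CPM among old contractile Rgs5-high members and at 3321 and 1121 CPM in remaining ones. Ier2 was at 696 and 104 CPM and at 433 and 118 CPM. Klf4, a zinc finger factor of smooth muscle, was at 514 and 92.3 CPM and at 364 and 108 CPM. In the contractile Rgs5-low members the order was the other way for Fos, with 4207 CPM (3751 to 4703) for the adult and 6350 CPM (5926 to 6797) for the old set. Of 16 immediate early genes counted in the old library, 15 were at least 2-fold higher in Rgs5-low than in contractile Rgs5-high members, against 0 of 20 in the adult library. Over all genes counted in that contrast, 9.57% were higher in the old and 1.30% in the adult library. The contrast moved with gene length. Its median log2 ratio was 0.58 in the bin of the shortest and -1.35 in that of the longest genes in the old library, and -0.33 and -0.81 in the adult one. The part of length in these counts was not tested. In CAR barcodes Fos was 2.27-fold lower in the old library, the direction seen in the Rgs5-high members. The time from dissection to lysis is not given for either library, and its part was not tested.

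Fibrillar matrix genes had ratios below 0. Of 39 listed genes 27 were counted, 7 were at least 2-fold lower and 0 had a ratio above 0, with a median of -0.73. Elastin (Eln), the rubber-like fibre of artery walls, was at 298 CPM (262 to 337) among adult and 36.0 CPM (20.6 to 58.5) among old contractile Rgs5-high members, and at 47.7 and 14.8 CPM in remaining ones, while CAR barcodes held 4.81 and 2.26 CPM. Col3a1 was at 1438 and 1223 CPM in contractile and 2460 and 1326 CPM in remaining members. Col1a1 went from 2943 to 167 CPM in Rgs5-high members and likewise from 5419 to 150 CPM in CAR barcodes. In adult megakaryocyte barcodes, the lower genes Col1a1, Col1a2, Col11a1 and Fn1 reached over 30% of their adult Rgs5-high level, and Eln did not. The part of this background RNA in the lower values was not tested. Of the basement membrane list, Col4a1 was 2.34-fold lower (2.17 to 2.52) and Col18a1 and Sparc were also at least 2-fold lower, whereas Col4a3 and Col4a4, which form another collagen IV network, were at least 2-fold higher from low levels: Col4a4 was at 5.88 and 124 CPM in contractile and 39.4 and 88.7 CPM in remaining members.

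Among receptors and channels that set vessel tone, some were higher in the old set. Of the vasoactive and cGMP list, 18 genes were counted, 6 were at least 2-fold higher and 1 lower, with a median of 0.68. This median and that of 0.61 for the ion channel list lie near the 0.49 of the bin of the longest genes. Centred by length they were 0.36 and 0.14, so these shifts and the length trend cannot be told apart. The endothelin receptor Ednra was at 453 and 946 CPM in contractile and 468 and 953 CPM in remaining members, 2.06-fold higher (1.87 to 2.26) in the old set, while CAR barcodes held 125 and 124 CPM. The second endothelin receptor, Ednrb, was at 12.9 and 76.6 CPM in contractile and 14.4 and 229 CPM in remaining members. It had UMIs in 12 of 213 adult and 26 of 79 old remaining members. Over all adult Rgs5-high members it was at 13.8 CPM, so it was counted only through its old level. The neuropeptide Y receptor Npy1r was at 43.5 and 162 CPM and at 17.4 and 101 CPM. Irag1, a target of the cGMP kinase in the relaxation of smooth muscle, was 2.21-fold higher (1.99 to 2.46). The thrombin receptor F2r was lower, at 67.0 and 6.76 CPM in contractile and 50.7 and 14.8 CPM in remaining members. Of the ion channel list, 23 genes were counted, 4 were at least 2-fold higher (among them Kcnq5, Kcnab1 and Cacna1c) and 1 lower (Piezo2), with a median of 0.61. The L-type calcium channel Cacna1c was at 616 and 1277 CPM in contractile and 511 and 1067 CPM in remaining members, and CAR barcodes held 200 and 197 CPM. Kcnab1, a potassium channel subunit, was 8.20-fold higher in old remaining members but also 7.03-fold higher in old CAR barcodes.

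The contractile genes differed between the classes. In contractile Rgs5-high members 282 of 2995 genes were higher (9.42%) and 335 lower (11.2%), and of 33 contractile apparatus genes 6 were at least 2-fold lower (Acta2, Tagln, Myl9, Tpm2, Mustn1 and Crip1) and 1 higher (Synpo2), with a median of -0.34 beside -0.18 over all genes. Centred on that median, 410 genes were higher and 210 lower there, which turns the balance. In remaining Rgs5-high members 137 of 3064 genes were higher (4.47%) and 250 lower (8.16%), and of 28 contractile genes 2 were higher (among them Synpo2) and 0 lower, with a median of 0.13 beside -0.20. Centred likewise, 220 genes were higher and 166 lower. Measured from the median of -0.18, Tagln, Crip1, Tpm2 and Myl9, which were 2.27-fold, 2.27-fold, 2.01-fold and 2.01-fold lower, no longer reached 2-fold in contractile members, while Mustn1 and Acta2, with log2 ratios of -1.79 and -1.35, did. Acta2 was 2.56-fold lower (2.35 to 2.78) in old contractile Rgs5-high members. It is one of the genes whose sum cut the classes, and the median member there went from 19 to 3 Acta2 UMIs while that of Myh11 was 12 and 12.5. Over all contractile members, the Rgs5-low ones included, Acta2 was at 2427 CPM for the adult and 2551 CPM for the old library. The pericyte identity list had a median of 0.10 over Rgs5-high members, with 2 of 25 genes at least 2-fold higher, among them Anpep, and 0 lower. Of 25 counted smooth muscle transcription factors, 0 were at least 2-fold higher and 3 lower (Klf4, Hopx and Klf2), with a median of 0.20. Of 11 counted Notch pathway genes, Maml2, a coactivator, was at least 2-fold higher and 0 were lower, with a median of 0.33. The shares over all counted genes of the Rgs5-high set were 6.43% higher and 4.58% lower.

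Of 20 counted blood stem cell niche factors, 4 were at least 2-fold higher (Spp1, Hgf, Il34 and Angpt1) and 4 lower (Tgfb2, Vcam1, Cxcl1 and Tnfsf11), with a median of -0.16. Over all counted genes of the Rgs5-high set, 6.43% were higher and 4.58% lower. Hgf, hepatocyte growth factor, was at 19.3 CPM (13.9 to 26.2) among adult and 124 CPM (101 to 150) among old Rgs5-high members. It was counted only through its old level. Il34, a ligand of the macrophage receptor Csf1r, was 2.48-fold higher (2.10 to 2.94), and Angpt1, a ligand of the endothelial receptor Tie2, was 2.15-fold higher (1.82 to 2.53), while in CAR barcodes Angpt1 was 1.81-fold lower. Kitl, stem cell factor, was at 924 and 1101 CPM in contractile and 859 and 1020 CPM in remaining members. All 7 counted genes of the complement and acute phase list had ratios above 0, beside 52.1% of all counted genes. At least 2-fold higher were 3 of them, C3 and C4b included. Over all Rgs5-high members C4b was at 24.4 CPM for the adult and 135 CPM for the old library, so it was counted only through its old level. C4b was at 30.6 and 122 CPM in contractile and 20.4 and 150 CPM in remaining members. In old megakaryocyte barcodes it reached over 30% of its old Rgs5-high level, and the part of such background RNA was not tested. C3 went from 4.61 to 80 CPM, so it was counted only through its old level, and from 73.7 to 811 CPM in CAR barcodes. Osteopontin (Spp1) was at 151 and 1625 CPM in Rgs5-high members, but 92.4% of the old UMIs came from 1 barcode.

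**Figure D5:**
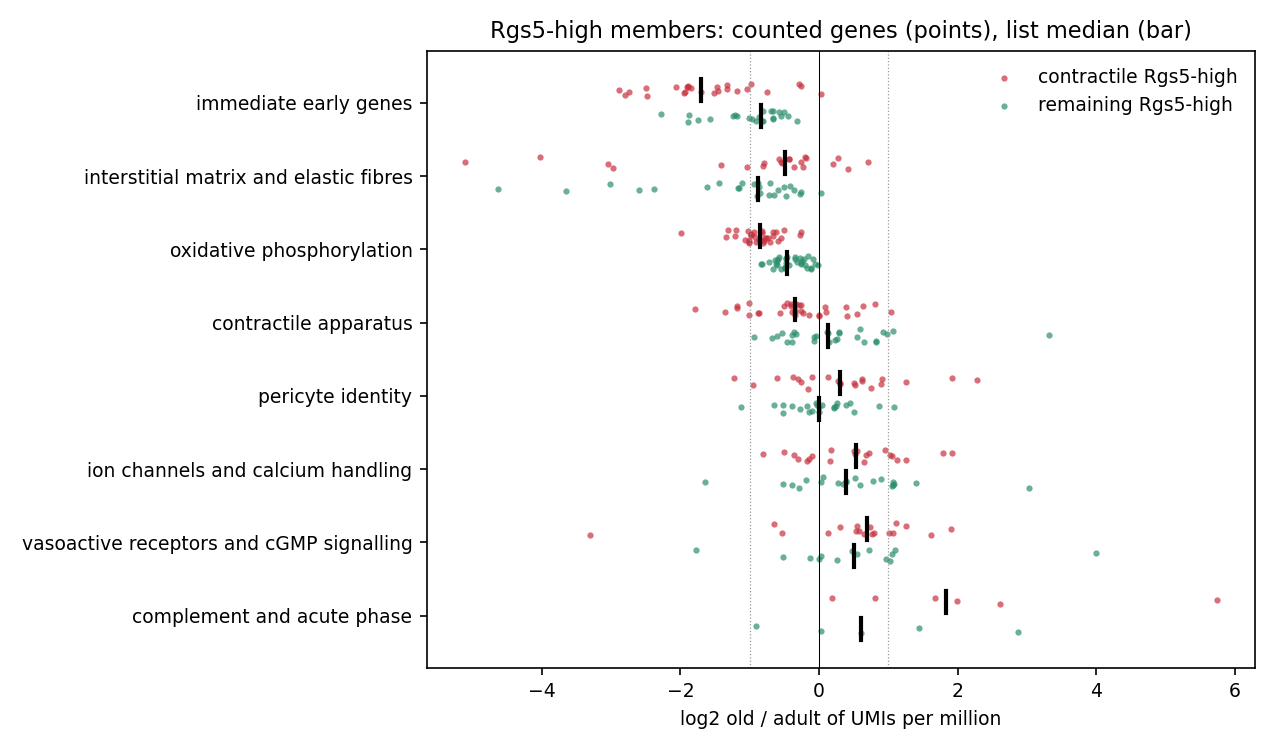
Log2 ratio of old over adult CPM for the counted genes of 8 lists (points) in contractile (red) and remaining (green) Rgs5-high members, with the list median as a black bar; dotted lines mark 2-fold. Immediate early genes have medians of -1.70 and -0.84 and interstitial matrix genes of -0.48 and -0.87. Oxidative phosphorylation genes lie below 0 at -0.85 and -0.47, and complement and acute phase genes lie highest at 1.83 and 0.61.

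The short transcripts of oxidative phosphorylation, the mitochondrial respiratory chain encoded in the nucleus, were lower in the old set in 35 of 35 counted genes, with a median of -0.62 and 2 of them, Ndufc1 and Ndufv3, at least 2-fold lower. This list lies near the median of -0.51 for the bin of the shortest genes, and centred by length its median was -0.15, so its shift and the length trend cannot be told apart. Of 10 counted senescence genes, 0 were at least 2-fold higher and 4 were lower, among them Cdkn1a. Of 19 counted TGF-beta and BMP genes, 0 were at least 2-fold higher and 4 lower (among them Tgfb2, Id1 and Id3). The median of that list was 0.15, or -0.34 when centred by length. Among immune lists, 1 of 10 counted interferon genes (Iigp1) and 1 of 7 antigen presentation genes (H2-Q7) were at least 2-fold higher and 0 lower. For comparison, 6.43% of all 4151 counted genes were higher and 4.58% lower, so 1 or 2 called genes are not a result about a list. Of 4 counted cell cycle genes 0 were called.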

How the data were processed

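The authors deposited, for each of the 2 libraries, a matrix of raw UMI counts. It was made with Cell Ranger 7.0.1, per the file headers, on GRCm39, per the submitters' processing notes. Barcodes with under 500 genes or over 10% mitochondrial UMIs were left out, which left 22403 of 25635 adult and 18975 of 22298 old barcodes, with 208637421 and 229917243 UMIs over all barcodes. The libraries share 152 barcode sequences, 1 of them a member in both. No doublet caller was run, and an alternative left out the deepest 10% of members.

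UMIs were summed per gene over a set and divided by its total (CPM), with Python 3.11.15, numpy 2.4.6, scipy 1.17.1 and pandas 2.3.3. A gene was counted at 50 CPM and 50 UMIs or more in the higher group and called at a 2-fold difference; a group at 0 was set to 3 counts. The ratio function was tested on simulated data. CAR barcodes had at least 0.5% CAR gene UMIs and were neither members nor endothelial. Megakaryocyte barcodes, no members, had at least 10 UMIs of Pf4, Ppbp, Gp9 and Itga2b. The blood cell RNA of the Rgs5-high conditions is that of Igkc, Jchain, 4 haemoglobin genes, S100a8, S100a9, Pf4 and Ppbp.

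Members, gene lists and marker lists were chosen with earlier results of these data known. Named genes were the rule genes, those with the largest ratios among genes at 100 CPM and 100 UMIs or more, up to 4 genes of each list and genes that define the cell. Since earlier values were known, no named gene was chosen blind to them. The Rgs5-high and Rgs5-low sets and their conditions were also chosen after the data were seen. Promoters are RefSeq sequences of GRCm38.p6 matched by symbol, and gene lengths are from GENCODE M21, matched by identifier. Values of a few listed genes are not reported here.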

Additional observations from a re-analysis of the deposited data

Results flagged for a closer look

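A few genes met the 2-fold difference in opposite directions in the groups set side by side, and none of these differences was tested. They were found by a search over every counted gene, which found 6 such genes between contractile and remaining Rgs5-high members and 5 between the ages. Of these, 3 and 1 are haemoglobin or platelet genes, markers of blood cells that the rule for named genes leaves out, and the others, named here, belong to no list. Between contractile and remaining Rgs5-high members, the log2 ratio of Ctla2a was -3.82 for adult and 5.10 for old members, that of Adamts1 was 1.04 and -1.14, and that of Marchf3 was -1.17 and 1.37. Between old and adult, the log2 ratio of Ctla2a was 4.84 in contractile and -4.08 in remaining Rgs5-high members, that of Tnfaip2 was -1.55 and 1.09, that of Pdzrn4 was 1.70 and -2.14, and that of Marchf3 was 1.44 and -1.11. Single barcodes carried much of the higher groups for some of these genes. For Ctla2a, 61.3% of its 75 UMIs in old contractile members and 44.5% of its 110 UMIs in adult remaining members came from 1 barcode each. For Pdzrn4, 85.0% of its 160 UMIs in old contractile members came from 1 barcode, and for Marchf3 38.2% of 68 UMIs did. The metalloprotease gene Adamts1 was more evenly spread, with UMIs in 78 of 112 adult and 28 of 58 old contractile members and in 118 of 213 and 29 of 79 remaining ones, and 26.4% of its UMIs in old remaining members came from 1 barcode. Tnfaip2 had UMIs in 52 of 112 adult and 16 of 58 old contractile members and in 77 of 213 and 35 of 79 remaining ones.

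Among the barcodes left out for few genes or many mitochondrial UMIs, 38 adult and 52 old ones met the marker rule and were not analysed further.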

How the results depend on the processing

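The old over adult ratio of the members' share, 1.20, was 1.07 with at least 10 marker UMIs and 1.38 with Cdh5, Kdr and Tie1 at 0. It reversed to 0.618 with CAR genes under 0.5%, 0.498 for Rgs5-high members only, 0.409 without Notch3 and 0.814 after thinning to 3000 UMIs. The ratio of Rgs5-high members, 0.498, was 0.510 with Cdh5, Kdr and Tie1 at 0, 0.499 with at least 1000 genes, and 0.490 both without the deepest 10% and without the depth condition; the other 4 settings run on it cannot change that set. In the order of at least 10 marker UMIs, at least 20 contractile UMIs, CAR genes under 0.5%, Rgs5-high only, without Notch3 and thinned, the contractile share was 26.4%, 5.32%, 26.8%, 34.5%, 25.9% and 19.4% in adult and 14.3%, 2.35%, 32.1%, 42.3%, 35.8% and 11.5% in old members.

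Counts of genes called moved most. At 100 CPM and 100 UMIs, higher and lower genes in the old library were 84 and 90 in all, 128 and 126 in contractile and 83 and 79 in remaining members, and 139 and 105 in all, 144 and 177 in contractile and 71 and 111 in remaining Rgs5-high ones. Without genes near the megakaryocyte background, which also drops genes that both cell types express, they were 41 and 18, 98 and 17, 42 and 8, 129 and 42, 125 and 82, and 83 and 37 in that order. With CAR genes under 0.5% they were 464 and 536 in all and 543 and 696 in remaining members. Restricting to Rgs5-high members gave 267 higher in all, 335 lower in contractile and 250 lower in remaining members, and leaving out Notch3 237 lower in remaining ones. Centring on the median gave 410 higher and 210 lower in contractile, and 220 higher and 166 lower in remaining Rgs5-high members. Centring by length gave 163 higher in all, 157 and 165 in contractile and 158 lower in remaining ones. The limit of 20 contractile UMIs gave 147 higher in contractile and 208 in remaining Rgs5-high members, and the stricter endothelial limit 90 in remaining ones. Without the depth condition, added after a first comparison, the counts were 351 and 259 in all Rgs5-high members.

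Contractile genes above remaining ones numbered 194 (100 CPM), 158 (Rgs5-high) and 174 (without Notch3) in the adult library, and 759 (CAR genes under 0.5%), 309 (100 CPM), 57 (Rgs5-high) and 325 (without Notch3) in the old one. Those below numbered 100 (10 marker UMIs), 355 (20 contractile UMIs), 414 (CAR genes under 0.5%), 394 (without the deepest 10%), 436 (each cell weighted alike), 7 (background) and 28 (without Notch3) in the adult, and 142 (background), 25 (Rgs5-high) and 235 (without Notch3) in the old library. Within Rgs5-high members the numbers above were 96 for adult and 22 for old members at 100 CPM, and 32 (background) in the old library. Those below were 70 (100 CPM) and 41 (background) in the adult, and 87 (20 contractile UMIs), 8 (100 CPM) and 12 (background) in the old library. Over all members, the old over adult median of the pericyte identity list reversed to 0.10 for Rgs5-high members and 0.17 without Notch3, and that of RGS proteins to 0.021 without Notch3. Of the values for single genes, 751 moved by more than their counting interval, 2530 did not, and none of those values reversed. These genes had been chosen for large ratios in the same data, so the absence of reversals says little about other genes. The cause of these moves was not tested. No paired analysis was possible because each age has 1 library.

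Depth limits the Rgs5-low members most, with 73449 and 131017 UMIs, so genes near 0 there are known only up to their counting interval.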
